A study of Mus musculus with 10 samples.

Results

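Rods renew their light-sensitive outer segments by shedding the tips, which the retinal pigment epithelium (RPE) engulfs every day. The 9 genes described here encode receptors and ligands of this process, measured in eyeballs of mice kept under blue light. They are the TAM receptor tyrosine kinases Mertk, Tyro3 and Axl, the TAM ligands Gas6 and Pros1, the integrin subunits Itgav and Itgb5, the integrin ligand Mfge8 and the scavenger receptor Cd36. The members were listed by symbol, and all 9 of 9 were found among the 24736 gene symbols of the deposited mRNA table.

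Shed tips expose phosphatidylserine (PS), a lipid that marks membranes for engulfment. MFG-E8, the product of Mfge8, links that lipid to the integrin alpha-v beta-5 and helps the tips bind. GAS6 and protein S, the product of Pros1, link it to MERTK, which drives the uptake. Loss of MERTK blocks uptake and leads to degeneration of photoreceptors in rats, mice and humans. TYRO3 and AXL belong to the same kinase family, and AXL is also used by macrophages and other tissue cells to clear dying cells. CD36 binds oxidised lipids and takes part in uptake by the RPE, and is abundant in muscle, fat and capillaries as a fatty acid carrier.

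The eyeballs were those of female mice of the outbred Kunming stock, and the labels give an age of 4 weeks. The blue light group, 3 libraries called blue A, B and C, came from mice kept inside a dark container under an 18 W blue lamp. The natural light group, 2 libraries called control A and B, came from mice in natural light. Sample titles carry day 14. Whether each library stands for a different animal is not in the labels, so the spread behind each p-value is one between libraries and may be technical.

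Library totals ran from 93202801 to 102602360 units in blue light and were 107660103 and 87071487 in natural light. The 45S ribosomal precursor Rn45s took 8.69% to 14.4% of the blue light libraries and 4.30% and 14.1% of control A and B. Levels are counts scaled by TMM to a common library total (CPM), given as mean ± SD over 3 blue light and 2 natural light libraries. They are not divided by transcript length, so levels are compared between libraries and never between genes. An eyeball holds retina, RPE, lens, cornea and attached muscle, fat and vessels, and in such a mixture fewer cells of a type and less RNA per cell cannot be told apart. The RPE marker Rpe65 stood at 137, 206 and 154 CPM in blue A, B and C and at 166 and 191 CPM in control A and B. The summed level of 15 RPE markers ran from 2106 to 2521 CPM in blue light and was 2019 and 2331 CPM in natural light. Ttr, Dct and Pmel weighed most in this sum, at 575, 540 and 302 CPM in blue A. It is thus no direct measure of RPE content. Rlbp1 is counted both here and among the Muller glia and astrocyte markers used below. Of the 15 RPE markers 0 passed the test described next in edgeR, where 9 had a positive log2 fold change and 6 a negative one. There 3 higher and 1 lower had an unadjusted p under 0.05, against 1334 and 1760 of all 18988 tested genes. DESeq2 called 3 of them and limma-voom 0, against 1729 and 457 of all tested genes. Another RPE marker, Best1, stood below 1 CPM in every library.

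Promoter windows are shown for both TAM ligands and for the receptors Axl and Mertk, because the results below turn on a difference between Pros1 and Gas6 and on the level of Axl beside that of Mertk. Each window runs from 250 bases before to 50 bases after an annotated start of the gene, 5′ to 3′ on its own strand. Starts are from RefSeq on GRCm38.p6, the assembly also called mm10. For Axl, Tyro3, Itgav and Cd36 the start used lies inside the gene's annotated span and not at its 5′ end. Other starts of these genes were not searched. The reference is of the C57BL/6J strain, not of Kunming mice. Capitals mark matches, on either strand, to any of 5 motifs: the GC box GGGCGG, the TATA box TATAAA, the AP-1 site TGANTCA, the STAT site TTCNNNGAA and the E-box CACGTG. The windows lie at chr16:62854057-62854356 on the plus strand for Pros1, at chr8:13494486-13494785 on the minus strand for Gas6, at chr7:25788684-25788983 on the minus strand for Axl and at chr2:128698665-128698964 on the plus strand for Mertk.
Pros1: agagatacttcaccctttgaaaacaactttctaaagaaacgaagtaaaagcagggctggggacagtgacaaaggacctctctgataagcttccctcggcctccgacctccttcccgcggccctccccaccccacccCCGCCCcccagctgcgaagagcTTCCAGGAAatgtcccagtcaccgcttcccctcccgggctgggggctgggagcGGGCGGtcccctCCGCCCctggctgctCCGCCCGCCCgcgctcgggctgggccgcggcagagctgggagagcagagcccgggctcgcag
Gas6: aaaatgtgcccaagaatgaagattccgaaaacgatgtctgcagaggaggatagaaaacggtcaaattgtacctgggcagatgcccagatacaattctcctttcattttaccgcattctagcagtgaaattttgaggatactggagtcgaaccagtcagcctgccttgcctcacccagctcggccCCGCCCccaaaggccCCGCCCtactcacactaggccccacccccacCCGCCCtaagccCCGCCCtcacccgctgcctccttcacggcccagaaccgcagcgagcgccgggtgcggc
Axl: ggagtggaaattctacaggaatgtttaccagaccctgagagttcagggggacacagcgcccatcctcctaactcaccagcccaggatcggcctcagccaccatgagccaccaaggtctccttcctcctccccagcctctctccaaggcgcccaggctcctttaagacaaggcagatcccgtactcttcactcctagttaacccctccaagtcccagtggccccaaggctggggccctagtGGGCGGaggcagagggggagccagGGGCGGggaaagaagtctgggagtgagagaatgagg
Mertk: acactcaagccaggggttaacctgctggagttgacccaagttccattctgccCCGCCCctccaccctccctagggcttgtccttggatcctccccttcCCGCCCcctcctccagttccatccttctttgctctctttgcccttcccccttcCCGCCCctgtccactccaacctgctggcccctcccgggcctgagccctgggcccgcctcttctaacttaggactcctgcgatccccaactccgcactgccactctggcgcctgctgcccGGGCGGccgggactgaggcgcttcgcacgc

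The windows of all 9 members held at least 1 GC box, against 46.2% of the 21263 windows of protein-coding genes and 35.7% of all 32851 windows of this length. Their share of G and C bases was 43% for Cd36 and from 58.3% (Gas6) to 73.3% (Tyro3) for the others. The median over all windows was 52.7%, and the GC box counts were not adjusted for this share. Pros1 had 5 GC boxes, of which those whose first bases lie at positions -12 and -8 from the start overlap each other, Gas6 and Mertk had 4 each and Axl 2. Pros1 was the only member of the 9 whose window also held a STAT site, TTCCAGGAA, whose first base lies at position -92 from the start. Such a site was present in 7.69% of protein-coding windows. None of the 9 windows held a match to the TATA box, the AP-1 site or the E-box. A match describes these letters and is no evidence that a factor binds there.

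The comparison asked whether the mRNAs of these receptors and ligands differ between eyes under blue light and under natural light. Pros1 rose, and it was the 1 member of 9 to pass. The other 8 members, Mertk among them, did not pass. Log2 fold changes are blue light minus natural light, from edgeR's quasi-likelihood test on the whole table, with p-values adjusted (Benjamini-Hochberg) over all 18988 tested genes and a threshold of 0.05. All 9 members passed the low-count filter. Of all tested genes 0.664% were called higher, 1.55% lower and 2.22% in either direction. The median log2 fold change of the 9 members was 0.17, and that of all tested genes was -0.0056. In 4 of the 9 members (Pros1, Axl, Itgav and Itgb5) every blue light library stood above both natural light libraries, as did 15.6% of all tested genes. An unadjusted p under 0.05 with a positive log2 fold change was found for 3 of the 9 members (Pros1, Axl and Itgav) and for 7.03% of all tested genes. With 9 members, counts of 1, 3 and 4 rest on few genes.

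**Figure D1:**
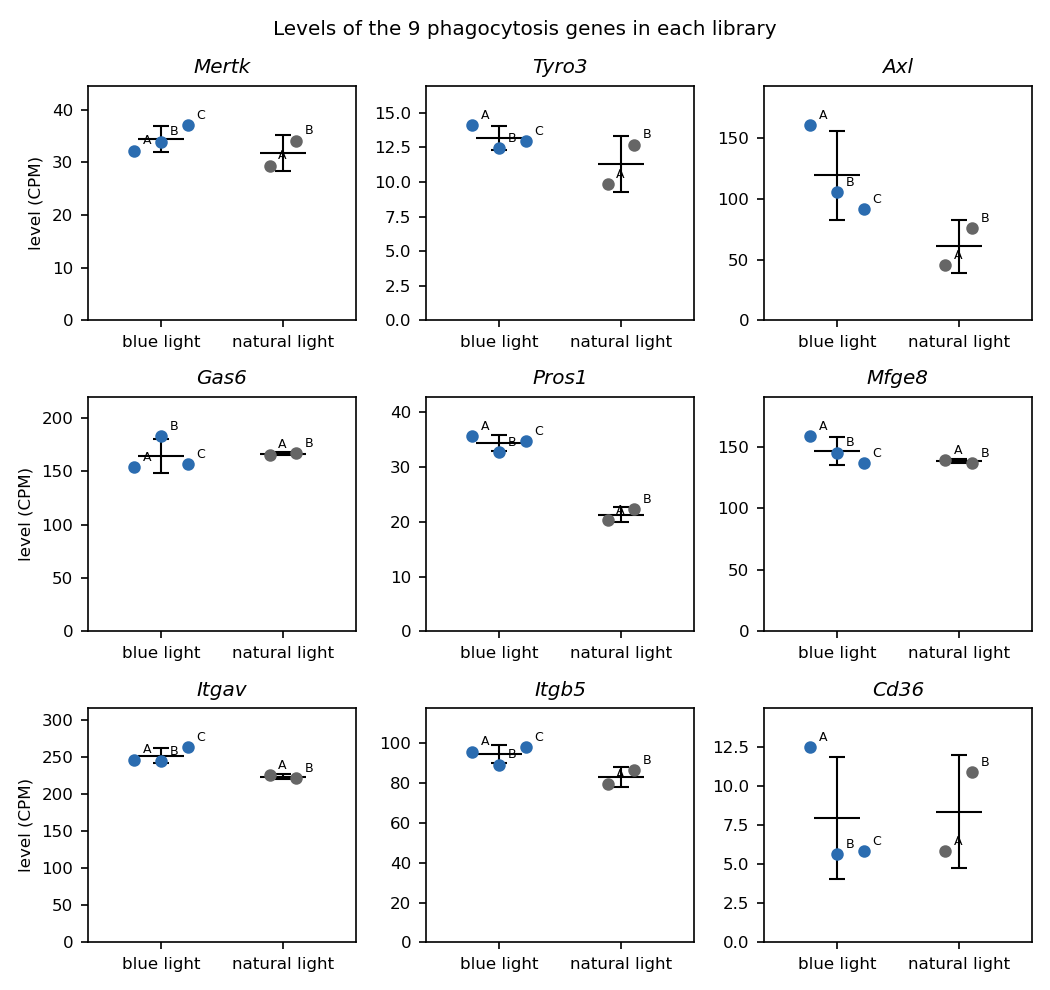
Level of each of the 9 genes in CPM (vertical axis from 0, own scale per gene) in the blue light libraries A, B and C (left of each panel) and the natural light libraries A and B (right). Horizontal bars are means and vertical bars SDs. The groups stand clear of each other for Pros1, at 32.6 to 35.6 CPM in blue light against 20.3 and 22.2 CPM in natural light, while for Mertk and Gas6 they overlap.

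Pros1 encodes protein S, a plasma anticoagulant and TAM ligand (NCBI gene 19128, chromosome 16 from 62854307 to 62929346, GRCm38). It stood at 35.6, 32.6 and 34.7 CPM in blue A, B and C and at 20.3 and 22.2 CPM in control A and B. The 3 blue light libraries lay close together and all above the natural light ones. The means were 34.3 ± 1.51 CPM in blue light and 21.3 ± 1.40 CPM in natural light, and the log2 fold change was 0.69 (SE 0.091, 95% interval 0.47 to 0.91, adjusted p = 0.0281). This is a 1.61-fold higher level. The call was lost in edgeR when any 1 of the 5 libraries was left out, with adjusted p from 0.0514 without blue B to 0.190 without control A, while the log2 fold change stayed between 0.65 and 0.76. With the Rn45s share of each library as a covariate the log2 fold change was 0.66 and the adjusted p 0.0882, and the call was lost there too.

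Gas6, the other TAM ligand (NCBI gene 14456, chromosome 8 from 13465374 to 13494535), stood at 154, 183 and 156 CPM in blue A, B and C and at 166 and 167 CPM in control A and B. Blue light libraries lay on both sides of the natural light ones. The log2 fold change was -0.017 (SE 0.096, 95% interval -0.25 to 0.22, adjusted p = 0.959), an interval that runs from a 0.840-fold to a 1.16-fold level. Its sign was positive with library totals as the only scaling (0.033) and in 6 other alternatives. Its span overlaps that of Tmem255b, and strand is not stated for the counting, but with both genes summed the log2 fold change was -0.021.

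The ratio of 2 genes within a library does not depend on scaling. The ratio of Pros1 to Gas6, set to a geometric mean of 1 over the natural light libraries, was 1.81, 1.40 and 1.74 in blue A, B and C and 0.959 and 1.04 in control A and B. All 3 blue light ratios exceeded both natural light ratios. The difference was 0.71 on the log2 scale, with an SD of 0.20 in blue light and 0.085 in natural light. The 2-sided exact permutation p was 0.1, the smallest that 3 against 2 libraries allow, and 0.467 after adjustment over the 7 ratios computed, so the difference could not pass in this test.

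Mertk, the receptor that drives uptake of outer segments in the RPE (NCBI gene 17289, chromosome 2 from 128698915 to 128803162), stood at 32.3, 34.0 and 37.1 CPM in blue A, B and C and at 29.4 and 34.2 CPM in control A and B. Control B lay within the range of the blue light libraries. For Mertk the log2 fold change was 0.12 (SE 0.11, adjusted p = 0.666). Its 95% interval, -0.15 to 0.38, runs from a 0.903-fold to a 1.30-fold level. Over 17 alternatives the log2 fold change of Mertk lay between 0.036 and 0.23, and in none of them did it pass, the lowest adjusted p being 0.468.

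Tyro3 (NCBI gene 22174, chromosome 2 from 119797740 to 119818104), a TAM receptor also found in neurons, stood at 14.1, 12.4 and 12.9 CPM in blue A, B and C and at 9.84 and 12.7 CPM in control A and B. Control B again lay among the blue light libraries. For Tyro3 it was 0.22 on the log2 scale (SE 0.15, 95% interval -0.14 to 0.59, adjusted p = 0.524).

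Axl (NCBI gene 26362, chromosome 7 from 25756500 to 25788924) had the largest log2 fold change of the 9 members without passing the test. It stood at 161, 106 and 91.6 CPM in blue A, B and C and at 45.6 and 76.2 CPM in control A and B. Every blue light library was above both natural light ones, but libraries also differed widely within each group, with blue A highest and control A lowest. The means were 119 ± 36.6 CPM in blue light and 60.9 ± 21.6 CPM in natural light. The log2 fold change was 0.97 (SE 0.32, 95% interval 0.19 to 1.75, unadjusted p = 0.0230, adjusted p = 0.214, both from edgeR). Leaving out control B gave 1.39, leaving out control A 0.67. DESeq2 called Axl higher (adjusted p = 0.0116), as it did 4.46% of all tested genes, and so did edgeR with the level of skeletal muscle markers as a covariate (log2 fold change 0.99, SE 0.12, adjusted p = 0.0230), and over the other alternatives the adjusted p lay above 0.05, up to 0.588.

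The ratio of Axl to Mertk, on the same scale-free footing, was 2.68, 1.67 and 1.33 in blue A, B and C and 0.834 and 1.198 in control A and B. The groups did not overlap. The difference was 0.86 on the log2 scale, with an SD of 0.52 in blue light and 0.37 in natural light (2-sided exact permutation p = 0.2, adjusted p = 0.467). The ratio of Axl to Tyro3 also did not overlap between groups, with a difference of 0.74, while that of Tyro3 to Mertk did overlap, with a difference of 0.12.

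**Figure D2:**
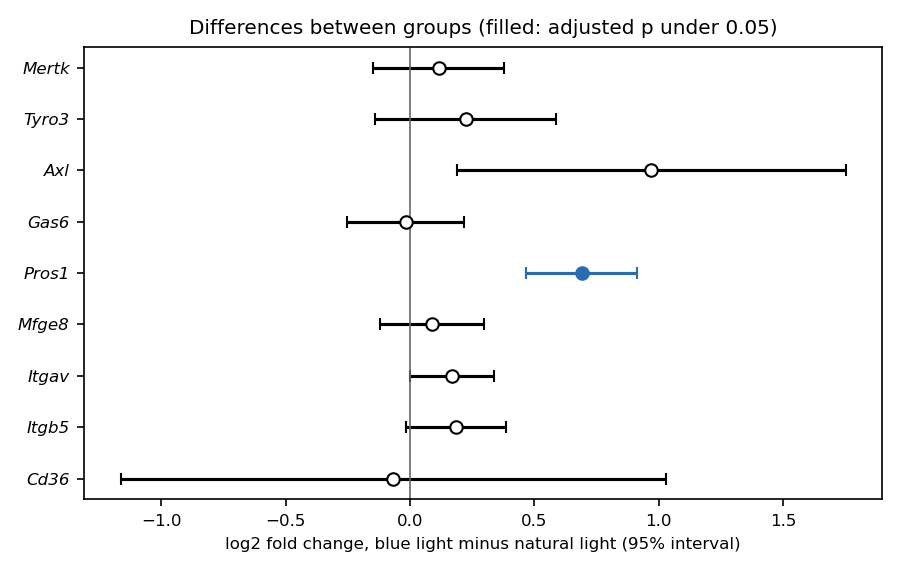
Log2 fold change of each of the 9 genes (horizontal axis, blue light minus natural light) with its 95% interval from edgeR, and the gene on the vertical axis. Pros1, filled, is the gene that passed. The interval of Axl, 0.19 to 1.75, is wide, that of Mertk, -0.15 to 0.38, includes 0, and that of Cd36 is the widest.

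The integrin subunits and their ligand lay within narrow bands. Itgav, the alpha-v subunit (NCBI gene 16410, chromosome 2 from 83722303 to 83806917), stood at 246, 245 and 263 CPM in blue A, B and C and at 226 and 221 CPM in control A and B. Itgb5, the beta-5 subunit with which it pairs on the RPE (NCBI gene 16419, chromosome 16 from 33829665 to 33949338), stood at 95.8, 89.3 and 98.1 CPM in blue A, B and C and at 79.6 and 86.5 CPM in control A and B. For both subunits the groups did not overlap, but the distance between them was small. The log2 fold change was 0.17 for Itgav (SE 0.069, unadjusted p = 0.0490, adjusted p = 0.304 in edgeR) and 0.19 for Itgb5 (SE 0.081, unadjusted p = 0.0639, adjusted p = 0.339 in edgeR). The ratio of Itgb5 to Itgav was 1.05, 0.983 and 1.004 in blue A, B and C and 0.949 and 1.05 in control A and B, so its groups overlapped (difference 0.016 on the log2 scale).

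Mfge8 (NCBI gene 17304, chromosome 7 from 79133768 to 79149060) stood at 159, 145 and 137 CPM in blue A, B and C and at 139 and 137 CPM in control A and B. Blue C and the natural light libraries were nearly level. On the log2 scale the difference was 0.087 (SE 0.085, 95% interval -0.12 to 0.30, adjusted p = 0.683). Its ratio to Itgav, the receptor subunit, overlapped between groups (difference -0.084).

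Cd36 (NCBI gene 12491, chromosome 5 from 17781690 to 17888959) stood at 12.5, 5.62 and 5.81 CPM in blue A, B and C and at 5.81 and 10.9 CPM in control A and B. One library of each group was high and the others low, a 2.22-fold span from the lowest to the highest library. The means were 7.97 ± 3.90 CPM in blue light and 8.35 ± 3.59 CPM in natural light. The log2 fold change was -0.066 (SE 0.45, adjusted p = 0.965), with a 95% interval from -1.16 to 1.03 that leaves more than a doubling or halving of the level inside it. Without blue A it was -0.53 and without control B 0.45.

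The levels of Pros1, Axl and Cd36 were set beside marker lists of the cell types an eyeball can hold. For Cd36, all 15 of 15 skeletal muscle markers had their highest levels in the same libraries, blue A and control B, as did 12.8% of all tested genes. The summed muscle level was 1696, 860 and 885 CPM in blue A, B and C and 794 and 1764 CPM in control A and B, and Acta1, the skeletal actin, stood at 140, 75.7 and 67.1 CPM in blue A, B and C and at 57.4 and 138 CPM in control A and B. None of 15 muscle markers passed in edgeR, in either direction, 0 had an unadjusted p under 0.05, and DESeq2 and limma-voom made 0 calls. With the mean centred log2 CPM of the muscle markers as a covariate, the log2 fold change of Cd36 was -0.083. Its SE was 0.18 in place of 0.45. The drop was not particular to Cd36: the SE of Axl was 0.12 in place of 0.32, while that of Mertk was 0.11 in both fits. Calls over all genes went from 421 to 651. The adipocyte marker Adipoq stood at 1.04, 0.326 and 1.12 CPM in blue A, B and C and at 0.0719 and 0.371 CPM in control A and B. The 12 adipocyte markers summed to 76.2 to 93.7 CPM in blue light and 53.7 and 67.8 CPM in natural light. Lpl and Plin4 weighed most in this sum, at 43.1 and 31.0 CPM in blue A, so it is no direct measure of fat content. Of the 12 adipocyte markers, Lep and Cidec were at 0 in both natural light libraries, and 1 rose in edgeR, the serine protease Cfd. In 11 of the 12 the log2 fold change was positive, 4 of them with an unadjusted p under 0.05 in edgeR, against 7.03% of all tested genes. DESeq2 called 4 and limma-voom 0, against 1729 and 457 of all 18988 tested genes. What part either tissue has in the values of Cd36 was not tested.

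For Axl, 16 of 18 microglia and macrophage markers were, like Axl, highest in blue A and lowest in control A, as were 10.8% of all tested genes. The same held for 6 of 15 skeletal muscle markers and 5 of 12 Muller glia and astrocyte markers. It also held for 5 of 12 adipocyte markers and 3 of 12 endothelium and pericyte markers. The microglia and macrophage markers summed to 543, 377 and 415 CPM in blue A, B and C and to 195 and 259 CPM in control A and B. This sum was lower in blue B than in blue C, whereas Axl was higher in blue B. Of the 18 microglia and macrophage markers 1 rose in edgeR and 17 had a positive log2 fold change, with a median of 1.04. An unadjusted p under 0.05 in edgeR with a positive log2 fold change was found for 13 of them, against 7.03% of all tested genes. DESeq2 called 12 and limma-voom 2, against 1729 and 457 of all 18988 tested genes. Cx3cr1, the fractalkine receptor of microglia, stood at 27.7, 17.1 and 22.3 CPM in blue A, B and C and at 9.33 and 12 CPM in control A and B. The part of these cells in the level of Axl was not tested. Blue A was high in Axl, in microglia markers and in muscle markers alike.

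For Pros1, the list of 12 Muller glia and astrocyte markers summed to 5401, 4858 and 5085 CPM in blue A, B and C and to 3986 and 4146 CPM in control A and B. The order of the 5 libraries is that of Pros1, but so is that of the summed microglia and macrophage markers and of the summed adipocyte markers, 3 of 11 marker lists in all. Gene by gene, 3 of the 12 Muller glia and astrocyte markers, 9 of the 18 microglia and macrophage markers and 2 of the 12 adipocyte markers had this order, as did 2.6% of all tested genes. Of the 12 Muller glia and astrocyte markers 3 rose (Gfap, the glutamate transporter Slc1a3 and clusterin, Clu) and 0 fell in edgeR, with a median log2 fold change of 0.49. DESeq2 called 9 of these and limma-voom 4, against 1729 and 457 of all 18988 tested genes. In 9 of the 12 the log2 fold change was positive and in 3 negative. Gfap, the filament of reactive glia, stood at 160, 130 and 125 CPM in blue A, B and C against 12.8 and 18.1 CPM in control A and B. Glul, the glutamine synthetase of Muller glia, chosen after its values were seen, lay on the other side, at 1087, 1163 and 1056 CPM in blue A, B and C and at 1462 and 1603 CPM in control A and B (log2 fold change -0.48, SE 0.083, adjusted p = 0.0537 in edgeR). Rod markers moved the other way: 15 of 18 were called lower in edgeR, as were 1.55% of all tested genes, with a median of -1.65. All 18 had a negative log2 fold change with an unadjusted p under 0.05 in edgeR. The 12 endothelium and pericyte markers, of which 0 passed in edgeR, 1 had an unadjusted p under 0.05 and DESeq2 and limma-voom called 1 each, had a median of 0.11, with Pecam1 at 25.5, 27.9 and 26.8 CPM in blue A, B and C and at 23.2 and 28.1 CPM in control A and B. Which of these cells carry the Pros1 mRNA was not tested.

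**Figure D3:**
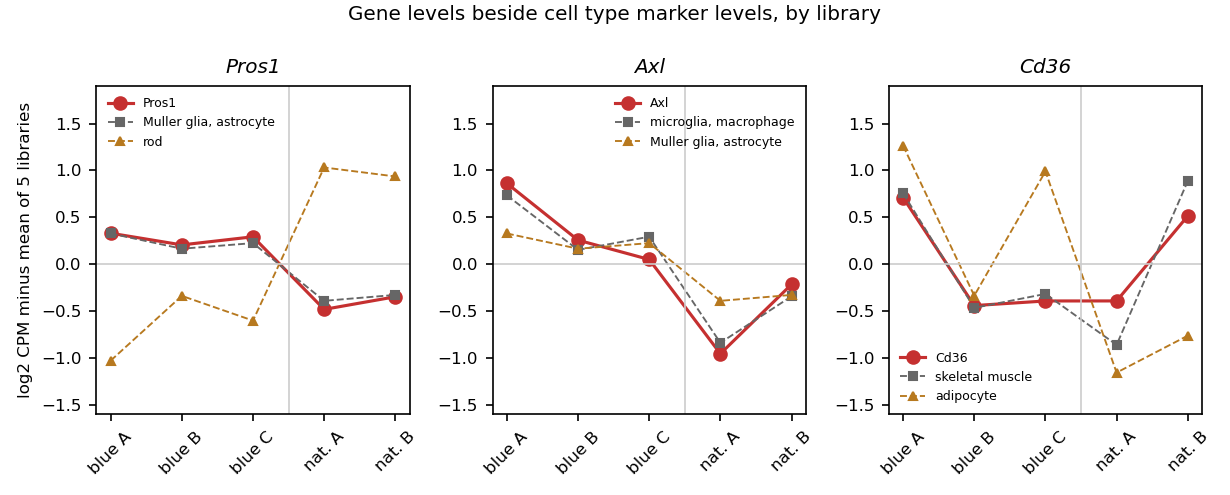
Level of Pros1, Axl and Cd36 (red circles) in each library beside the mean level of marker lists (dashed lines), on a vertical axis of log2 CPM minus the mean of the 5 libraries, with blue light libraries left of the vertical line and natural light libraries (nat. A and B) right of it. Cd36 is high in blue A and natural light B with the muscle markers. Axl is highest in blue A and lowest in natural light A, as are both marker lists in its panel.

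By pattern over the 5 libraries, the genes nearest to Pros1 were Lrrc8c, Nab2 and Pcolce, with root-mean-square differences of 0.021, 0.025 and 0.026 in centred log2 CPM. Lrrc8c, a subunit of volume-regulated anion channels, stood at 18.0, 16.4 and 17.2 CPM in blue A, B and C and at 10.1 and 10.8 CPM in control A and B. Those nearest to Axl were AW011738, Fyb and Naip5, with differences of 0.075, 0.078 and 0.086. Fyb, an adaptor of T cells and myeloid cells, stood at 14.6, 9.04 and 8.10 CPM in blue A, B and C and at 4.54 and 7.26 CPM in control A and B. With 5 libraries many genes share a pattern, and these are descriptions.

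The rest of the phagocytosis pathway was followed through 4 lists of 78 genes, of which 77 were tested. In edgeR 2 rose and 1 fell, where 0.664% and 1.55% of all tested genes did. The median log2 fold change of the 77 was 0.028. Among 20 tested genes of other PS receptors and bridging proteins, 0 rose and 1 fell, with a median of 0.11. With an unadjusted p under 0.05 in edgeR, 5 were higher and 3 lower, against 1334 and 1760 of all 18988 tested genes. DESeq2 called 7 of the 20 and limma-voom 1, against 1729 and 457 over all tested genes. The gene that fell was Tulp1, which photoreceptors express and whose product has been described in mice as a bridging ligand of MERTK. It stood at 146, 184 and 191 CPM in blue A, B and C and at 384 and 341 CPM in control A and B (log2 fold change -1.06, SE 0.13, adjusted p = 0.0249 in edgeR). The call of Tulp1 held without blue A and was lost without each of the other libraries (adjusted p 0.0599 without blue B, 0.0886 without blue C, 0.195 without control A and 0.104 without control B, all in edgeR), with a log2 fold change from -1.15 to -0.93. The fall of the rod markers, 15 of 18 of them called in edgeR, stands beside it, and their part in this value was not tested.

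Among 22 genes of engulfment signalling, the adaptors, kinases and GTPases that remodel actin below the receptors, 0 passed in edgeR. There 3 higher and 2 lower had an unadjusted p under 0.05, against 1334 and 1760 of all 18988 tested genes. DESeq2 made 1 call in this list and limma-voom 0, against 1729 and 457 over all tested genes. The median was 0.045. The smallest p belonged to Dock1, an activator of Rac, at 190, 176 and 172 CPM in blue A, B and C and at 137 and 148 CPM in control A and B (log2 fold change 0.33, adjusted p = 0.119 in edgeR). Next came the adaptor Gulp1, with a log2 fold change of -0.26 (adjusted p = 0.218 in edgeR), and the lipid kinase subunit Pik3ca, at -0.21 (adjusted p = 0.292 in edgeR). Rac1, chosen after its values were seen, stood at 54.0, 179 and 44.7 CPM in blue A, B and C and at 191 and 176 CPM in control A and B, so that blue B resembled the natural light libraries and blue A and C did not (log2 fold change -0.98, SE 0.60, adjusted p = 0.485 in edgeR).

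Among 21 genes of phagosome maturation, 1 rose and 0 fell, with a median of -0.026. With an unadjusted p under 0.05 in edgeR, 4 were higher and 1 lower, against 1334 and 1760 of all 18988 tested genes. DESeq2 called 2 of the 21 and limma-voom 1, against 1729 and 457 over all tested genes. The gene that rose was Ctsd, cathepsin D, a lysosomal protease that degrades outer segment proteins in the RPE and is also active in macrophages and glia. It stood at 560, 516 and 539 CPM in blue A, B and C and at 322 and 387 CPM in control A and B (log2 fold change 0.60, SE 0.10, adjusted p = 0.0483 in edgeR). In edgeR the call was lost in each fit that left out 1 library, with adjusted p from 0.0833 to 0.206, and with the RPE marker level as a covariate (adjusted p = 0.0600). The microglia and macrophage markers that were higher in the same libraries are given above, and their part in this value was not tested.

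Among 14 genes of PS exposure and don't-eat-me signals, 1 rose and 0 fell, with a median of -0.0022. With an unadjusted p under 0.05 in edgeR, 2 were higher and 2 lower, against 1334 and 1760 of all 18988 tested genes. DESeq2 called 3 of the 14 and limma-voom 2, against 1729 and 457 over all tested genes. The gene that rose was Cd47, whose product on a cell surface restrains engulfment by phagocytes. It stood at 83.9, 88.4 and 88.7 CPM in blue A, B and C and at 56.2 and 56.1 CPM in control A and B. Libraries of a group lay close together and the groups far apart (log2 fold change 0.63, SE 0.071, adjusted p = 0.0202 in edgeR). This call held without blue A or blue B and was lost without blue C (adjusted p = 0.108), control A (0.158) or control B (0.111), while the log2 fold change stayed between 0.62 and 0.68. Sirpa, its receptor on phagocytes, chosen after its values were seen, stood at 130, 130 and 131 CPM in blue A, B and C and at 125 and 137 CPM in control A and B (log2 fold change -0.0087, adjusted p = 0.970 in edgeR). Atp8a2, a lipid flippase of photoreceptors that keeps PS on the inner membrane leaf, also chosen after its values were seen, stood at 72.3, 102 and 99.1 CPM in blue A, B and C and at 163 and 174 CPM in control A and B. Its log2 fold change was -0.89 (SE 0.16, adjusted p = 0.0559 in edgeR) and just missed the threshold.

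**Figure D4:**
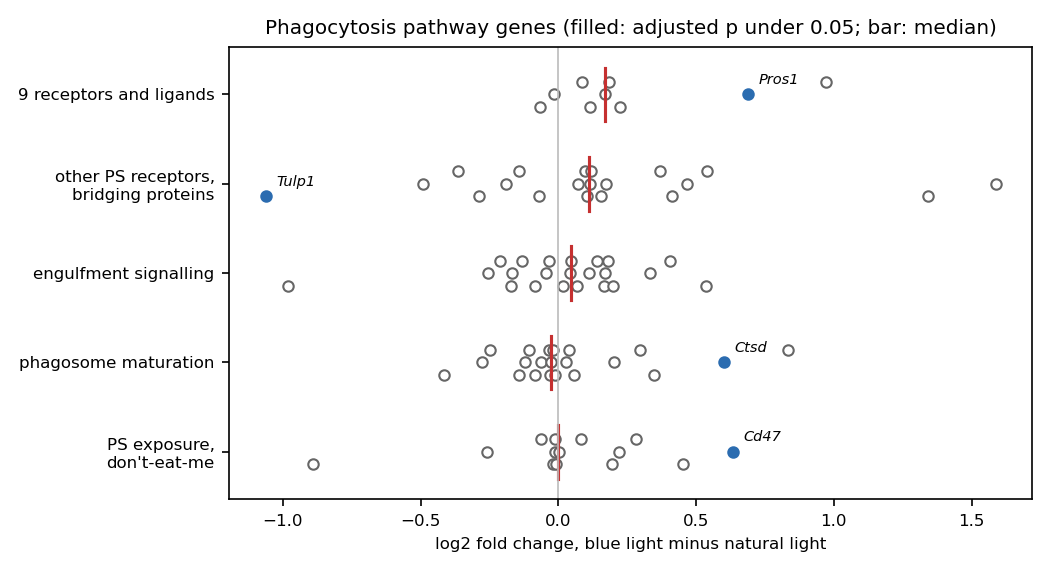
Log2 fold change (horizontal axis, blue light minus natural light) of the 9 receptors and ligands and of 4 further lists of the pathway, 1 circle per tested gene, with filled circles for an adjusted p under 0.05 in edgeR and red bars for list medians. Pros1, Ctsd and Cd47 lie to the right among the filled circles and Tulp1 to the left, and the medians lie between -0.026 and 0.17.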

How the data were processed

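mRNA of eyeballs was measured in 3 blue light and 2 natural light libraries, grouped by the source names of the labels. Per the labels' protocols, ribosomal RNA was removed before random priming. Tools listed in the submitters' processing notes are HISAT2, StringTie, bcl2fastq 2.0, limma and DESeq2, with mm10 as the build and no roles stated. The values deposited by the authors were read as estimated counts for each gene symbol, without normalisation. They are whole numbers, so rounding changes nothing. Strand use in counting was not stated in the sources used here. Since 1 unit need not be 1 fragment, no counting intervals are given.

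The whole table was fitted in edgeR 4.0.16 (R 4.3.3) with TMM scaling, filterByExpr by group and the quasi-likelihood F-test, without the letters A, B and C as a block. The SE is the absolute log2 fold change divided by the square root of F, and 95% intervals use it with the test's degrees of freedom. Centred log2 CPM used a prior count of 2. Marker levels used as covariates were the mean centred log2 CPM over the tested genes of a list, not its summed CPM. DESeq2 1.42.0, limma 3.58.1 (voom) and the other alternatives of the closing section were run on the same table. The pipeline was tested on simulated counts. The miRNA table was not used.

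The members, lists and tests were chosen with earlier results of these data known. All members were named. From each pathway list the called genes were named, or else the 3 with the smallest p, and for the 2 members with the smallest p the 3 nearest genes by pattern. A few genes chosen after their values were seen are marked so. The ratios between members, the counts of markers that share a gene's order of libraries or its highest and lowest ones, and the promoter motif search were added after the values had been seen. Another motif, the interferon response core, was also searched, matched no member's window and is not shown. Values of some marker genes are not reported here.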

Additional observations from a re-analysis of the deposited data

How the results depend on the processing

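Over 17 alternatives to the edgeR analysis, Pros1, Axl, Mertk, Tyro3, Mfge8, Itgav and Itgb5 kept a positive log2 fold change. Gas6 turned positive with DESeq2's size factors (0.0027), library totals (0.033), DESeq2 (0.0027) and the replicate block (0.013), and without blue A, blue C or control A (0.046, 0.018 and 0.0013), in a range down to -0.079 without blue B. Cd36 turned positive with library totals (0.0042), the replicate block (0.075) and the RPE marker level as a covariate (0.013), and without blue B, blue C or control B (0.16, 0.12 and 0.45), in a range down to -0.53 without blue A. Neither gene passed in any of these.

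The count of members called higher was 1 in the analysis reported, 2 in DESeq2 and with the muscle level as a covariate (Pros1 and Axl in both), and 0 with the Rn45s share as a covariate, with the replicate block, and in each fit that left out 1 library. No member was called lower in any alternative. Of all genes 421 were called, 274 with library totals, 1729 in DESeq2, 651 with the muscle level, 14 with the Rn45s share, 0 with the replicate block (1455 at an unadjusted p under 0.05) and 0 to 311 without 1 library, the lowest being without control B and the highest without blue A. Where 1 control was left, it was assumed to vary like the blue light libraries.

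Calls among other PS receptors and bridging proteins numbered 1, against 3 with a mean CPM of at least 5, 7 in DESeq2, 4 with the muscle level, 0 with the Rn45s share or the block and 0 to 1 without 1 library. In engulfment signalling they numbered 0, against 1 in DESeq2 and 0 to 1 without 1 library. In phagosome maturation they numbered 1, against 2 in DESeq2 and with the muscle level, and 0 with the Rn45s share, the RPE level, the block or without any 1 library. In PS exposure and don't-eat-me signals they numbered 1, against 2 with a mean CPM of at least 5, in limma-voom and with the RPE level, 3 in DESeq2, 0 with the Rn45s share or the block, and 0 to 2 without 1 library. With the Rn45s share as a covariate Pros1, Tulp1, Ctsd and Cd47 had adjusted p of 0.0882, 0.0947, 0.0947 and 0.0839, and with the replicate block of 0.381, 0.277, 0.484 and 0.354. In the block fit blue C was alone under its letter, so the group difference came from letters A and B only. That fit also left fewer residual degrees of freedom than the main one. Its log2 fold changes for Pros1, Tulp1, Ctsd and Cd47 were 0.68, -1.14, 0.61 and 0.62. What else lay behind the shifts in adjusted p was not tested.

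The letters A and B recur in both groups, but libraries with the same letter did not deviate together (correlations of deviations from group means over genes of -0.18 for A and -0.15 for B), so the letters are not taken as pairs.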
